A study of Mus musculus with 32 samples.

Results

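This comparison sets somatostatin (SST) interneurons of the mouse hippocampus against CamK neurons of the same region, in 8 of the 32 libraries of the series. The members are the libraries titled SST with the numbers W1, W2, W3 and W5 and those titled CamK with W2 to W5, all labelled hippocampus. Both groups are labelled wild type (WT), with no treatment, age or sex given in the labels, and ribosome-associated RNA was measured in both by paired-end sequencing of polyadenylated RNA. The labels name neither the Cre line nor the ribosome tag behind a population, nor do they say that numbered libraries came from separate animals, so p-values measure the spread between these libraries, which may be technical. The other 24 libraries hold Grik neurons of hippocampus and CamK, Scnn, PV, SST and VIP neurons of cortex, 4 of each, and were used to share the estimate of the spread and to show where the hippocampal difference departs from the cortical one.

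As background, SST interneurons are GABAergic cells that inhibit the distal dendrites of pyramidal cells, and in the hippocampus they include cells of stratum oriens whose axons reach the layer of entorhinal input. CamK populations are named after the alpha subunit of calcium/calmodulin-dependent kinase II, which forebrain glutamatergic neurons such as hippocampal pyramidal cells carry at high levels. RNA bound to ribosomes is the pool engaged in translation, so its make-up in a tagged cell class is read as a proxy of what that class translates. These identities come from knowledge of the field. The deposited table names its rows only by identifiers of the form GSMG plus digits, which it pairs with no gene name, so neither population could be checked on its marker genes, and no gene, sequence or position is given for a feature.

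Each library held between 105426513 and 114153919 counts, except SST replicate 1 with 186505391. Libraries of the same group had Spearman correlations of 0.976 to 0.983 across the 24555 features tested, and libraries of different groups 0.927 to 0.941, so no library stood with the other population. Over 10790 features averaging 5 CPM or more (CPM is the count per 1000000 counts of the library, with the library total scaled by its TMM normalisation factor), the median standard deviation of log2 CPM was 0.129 in SST and 0.136 in CamK. Features reaching 1 CPM numbered 14166 ± 114 in SST and 13702.5 ± 204 in CamK (SD, n = 4 each), with no overlap between the groups. The exact permutation test, two-sided, gave p = 0.0286, the smallest that 4 against 4 libraries can give, and 0.114 after Benjamini-Hochberg adjustment over 4 library measures. The share of counts in the 100 most abundant features (23.1% ± 1.05 and 22.1% ± 0.977), the share in features under 1000 bases (20.9% ± 0.241 and 21.1% ± 0.47) and the count-weighted median length (1832 ± 25 and 1840 ± 30.2 bases) overlapped between SST and CamK, with adjusted p = 0.457, 0.648 and 0.771 by the same exact test.

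SST and CamK neurons of the hippocampus differed in 6575 of 24555 features, 26.8% of those tested. Of these, 3946 were higher in SST (16.1%) and 2629 lower (10.7%). Calls required both an estimated difference of 2-fold or more and, in edgeR's quasi-likelihood test, an adjusted p below 0.05. The libraries of the groups did not overlap for 5611 of the called features (85.3%), against 45.5% of all features tested. The other 964 were called although at least 1 SST and 1 CamK library crossed. In such bulk samples fewer cells of a type and less RNA per cell cannot be told apart. Features detected in the libraries of both populations were numerous all the same. In all 8 libraries 12399 features (50.5%) reached 1 CPM, and 2213 of these (17.8%) were called.

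The excess of features higher in SST lay among scarce ones. Where the 8 libraries averaged 1 CPM or more, 1730 called features were higher and 1692 lower (50.6% higher), against 60% of all called features. Between 0.1 and 1 CPM 67.3% of the called features were higher in SST, and under 0.1 CPM 77.3%. The order turned for abundant features, of which 557 were higher and 671 lower from 10 to 100 CPM, and 133 higher and 248 lower at 100 CPM or more. SST replicate 1 is also the deepest library. With that library thinned to the median depth of the other 7, 3937 features were higher and 2628 lower, and without it 61.2% of the called features were higher. Without a fold threshold 12560 features passed, 6599 higher and 5961 lower. The filter on low counts ran over all 32 libraries, so a feature scarce in these 8 could be tested through its counts in others. With the filter and fit on these 8 alone, 20113 features were tested and 56.3% of those called were higher in SST.

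**Figure D1:**
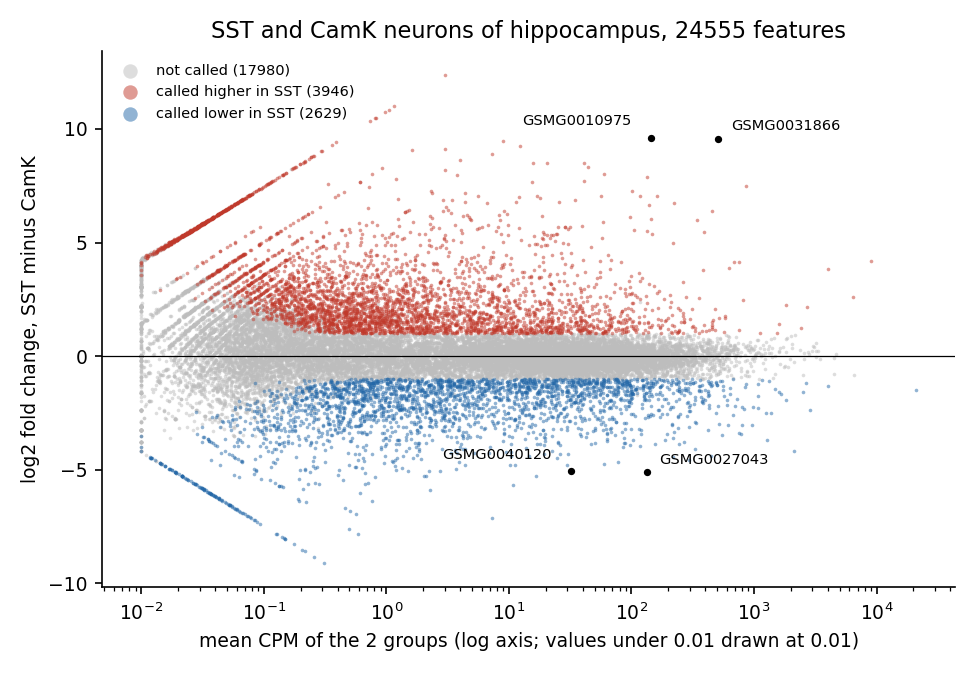
Each point is 1 of 24555 features, with the mean CPM of the SST and CamK hippocampus groups on the horizontal log axis and the log2 fold change of SST minus CamK on the vertical axis. Red points (3946) were called higher in SST and blue points (2629) lower; the 4 named features are in black, and the straight bands at the far left are features with few or no counts in a group.

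Features called higher in SST also differed by more, and they were scarcer (median 0.69 CPM, against 2.79 for those called lower). The median log2 fold change was 2.36 over the features called higher and -1.92 over those called lower, against 0.09 over all features tested. A call of this kind can rest on a group with no counts, for which the fitted fold change is not a bound: 471 of the features higher in SST had 0 counts in the 4 CamK libraries, and 128 of those lower had 0 counts in the 4 SST libraries. Among these, 6 and 10 rested on counts in 1 library alone. With the empty group set to a floor of 3 counts over its 4 libraries, the medians were 2.30 and -1.92. On that scale an 8-fold excess in SST was reached by 1214 features and an 8-fold deficit by 546, and for 32-fold the counts were 232 and 61. The called features averaging 1 CPM or more had closer medians, 1.84 and -1.69, and 131 of them passed 32-fold upwards and 12 downwards.

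Detection in the libraries of a single population was rare. Features at 1 CPM or more in all 4 SST libraries and under 0.1 CPM in all 4 CamK libraries numbered 36, with a median level of 2.46 CPM in SST, and 7 features at 1 CPM or more in every SST library had 0 counts in CamK, where 3 counts over the 4 libraries would be 0.00721 CPM. The reverse held for 4 features, with a median of 1.26 CPM in CamK, none of which had 0 counts in SST. The counts depend on the floor, at 14 and 2 for 0.05 CPM and 79 and 24 for 0.2 CPM. Of the 36 SST features, 22 had a mean of 1 CPM or more in SST cortex, 14 in PV cortex and 10 in VIP cortex, but 3 in Scnn cortex, 2 in CamK cortex and 0 in Grik hippocampus. Over all features tested the groups ranged only from 13864 in Grik to 15228 in VIP at that level.

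The features named here are those with the largest differences among called features of at least 50 CPM in the higher group and without overlap, 2 in each direction. GSMG0010975, a feature of 725 bases, stood at 289.9, 360.8, 229.7 and 277.9 CPM in SST replicates 1, 2, 3 and 5. In CamK replicates 2 to 5 it was at 0.26, 0.45, 0.36 and 0.40 CPM. Every SST library was thus above every CamK library by a wide margin, and the log2 fold change was 9.62 (SE 0.36, edgeR adjusted p = 2.46e-18). The feature was also high in SST cortex (374.2 ± 36.9 CPM) and PV cortex (73.4 ± 13.1), whereas VIP cortex (2.93 ± 1.35), Scnn cortex (3.93 ± 0.54), CamK cortex (0.70 ± 0.32) and Grik hippocampus (0.46 ± 0.20) were low (SD, n = 4 each). GSMG0031866, of 558 bases, was at 1065, 1281, 869.4 and 883.5 CPM in the SST libraries and at 1.12, 1.92, 1.003 and 1.31 CPM in the CamK libraries. The groups lay far apart, with a log2 fold change of 9.58 (SE 0.28, adjusted p = 3.56e-21). Its mean was 1980 ± 343 CPM in SST cortex, 322.1 ± 35.4 in VIP cortex and 77.5 ± 10.3 in PV cortex. It was lower in Scnn cortex (29.4 ± 1.94 CPM), CamK cortex (11.1 ± 2.52) and Grik hippocampus (3.46 ± 1.08), all of them above CamK hippocampus on average (1.34 ± 0.41). Unlike GSMG0010975, it was thus above 50 CPM in each of the GABAergic groups.

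In the other direction, GSMG0027043, of 3011 bases, was at 216.3, 194.5, 355.3 and 268.7 CPM in CamK replicates 2 to 5 and at 7.59, 8.04, 7.47 and 7.09 CPM in the SST libraries. The lowest CamK library was far above the highest SST library, and the log2 fold change was -5.10 (SE 0.25, edgeR adjusted p = 2.43e-16). Grik hippocampus, the second glutamatergic population of the region, was at 6.69 ± 1.55 CPM, near SST and not near CamK, while CamK cortex (59.2 ± 7.37) and Scnn cortex (57.7 ± 14.6) lay between. GSMG0040120, of 672 bases, was at 61.9, 53.9, 68.9 and 66.5 CPM in CamK and at 1.76, 2.17, 2.01 and 1.62 CPM in SST. Its groups were again far apart, with a difference of -5.06 on the log2 scale (SE 0.34, adjusted p = 4.07e-13). It was a feature of the hippocampal glutamatergic groups, at 18.1 ± 3.1 CPM in Grik hippocampus and 1.68 ± 0.38 CPM in CamK cortex.

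**Figure D2:**
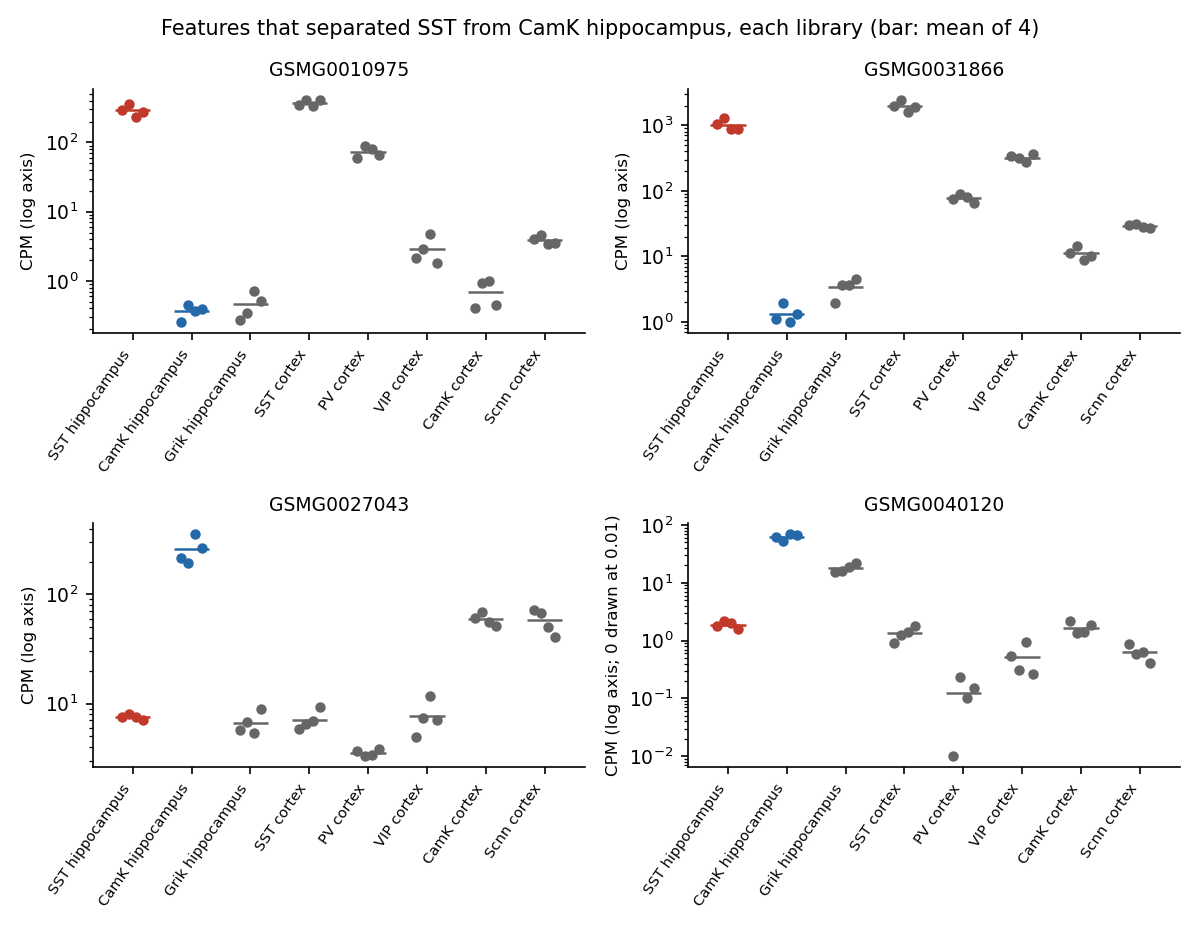
CPM on a log axis in each of the 32 libraries (points) with the mean of each group of 4 (bar), for the 4 features that separated SST (red) from CamK (blue) hippocampus. GSMG0027043 is at 6.69 CPM on average in Grik hippocampus and 258.7 in CamK hippocampus, and GSMG0010975 is above 50 CPM in SST and PV libraries alone.

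The called features carried a sizeable part of the RNA. Those called higher made up 15.6%, 15.5%, 12.2% and 13% of the counts of SST replicates 1, 2, 3 and 5 but 3.16%, 3.25%, 2.7% and 2.95% of CamK replicates 2 to 5. Those called lower made up 20.6%, 21%, 22.7% and 21.3% of the CamK libraries and 5.91%, 6.02%, 7.01% and 8.02% of the SST libraries. The calls set the direction of these shares, so they are a description. Of the summed difference in CPM of the features called higher, the 10 with the largest difference held 42.7% and the 100 largest held 71.7%. For the features called lower these shares were 27.9% and 63.5%. GSMG0038934 and GSMG0011019, singled out after their values were seen, were the most abundant of the features called higher. They held 1.31% to 4.15% of the SST counts, and without them the share of the features called higher was 10.9% to 11.7% in SST and 2.48% to 2.93% in CamK.

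The other 24 libraries were not part of the contrast, although they entered the fit that estimated the spread. In them the same shares followed transmitter class in most populations. The features called higher made up 11.8% to 13.2% of SST cortex, 12.2% to 13.1% of PV cortex and 13.6% to 16.9% of VIP cortex, against 3.84% to 4.02% of Grik hippocampus and 4.31% to 4.61% of CamK cortex. Scnn cortex, taken as glutamatergic, held 7.88% to 20.7%, and 6.02% to 10.1% without the pair named above, which was below every GABAergic library and above every CamK and Grik library. The features called lower made up 18.3% to 19.2% of Grik hippocampus, 17.6% to 18.6% of CamK cortex and 13.9% to 17% of Scnn cortex, against 5.68% to 9.51% of the cortical GABAergic libraries.

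**Figure D3:**
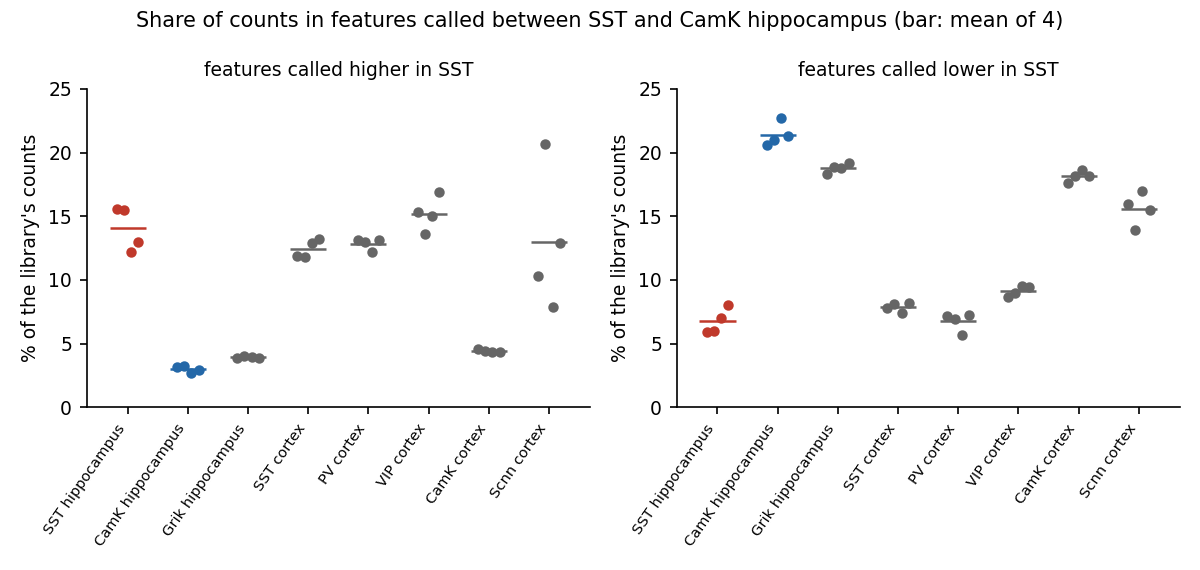
Percent of each library's counts in the 3946 features called higher (left) and the 2629 called lower (right) in SST than in CamK hippocampus, for 32 libraries (points) with the mean of each group of 4 (bar). Higher features hold 12.2% to 15.6% of SST and 2.7% to 3.25% of CamK hippocampus, and Scnn cortex spreads from 7.88% to 20.7%.

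Feature by feature the split was less clean. Each called feature was placed, for every other population, by whether its mean log2(CPM + 0.1) there was nearer to SST or to CamK hippocampus. The features called higher were nearer to SST in SST cortex (76.9%), PV cortex (73.5%), VIP cortex (78%) and Scnn cortex (55.7%), and nearer to CamK in CamK cortex (77%) and Grik hippocampus (73%). Over all features tested, for which the same SST and CamK means set the scale, the shares nearer to SST were 67.6%, 66.2%, 61.7% and 48.8% in the first 4 groups, and those nearer to CamK 64.8% and 62.1% in the last pair. Of the features called lower, 82.9% were nearer to SST in SST cortex, 82.7% in PV cortex and 61.5% in VIP cortex, against 67.6%, 66.2% and 61.7% of all features tested, so the share in VIP was that of features in general. All 3 cortical GABAergic groups were nearer to SST and all 3 other glutamatergic groups nearer to CamK for 500 of the features called higher (12.7%) and 481 of those called lower (18.3%), against 8.14% of all features tested. In Grik hippocampus 1064 of the features called higher (27%) and 813 of those called lower (30.9%) were nearer to SST, both below the 37.9% of all features tested. For 149 features called higher (3.78%, against 2.73% of all tested) SST cortex was the only other group nearer to SST, and for 89 (2.26%, against 3.8%) no other group was.

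The same contrast in cortex, from 8 separate libraries, gave 6011 called features (24.5% of those tested), 3201 higher in SST (13%) and 2810 lower (11.4%). Of the features called higher in hippocampus 1998 were called higher in cortex, which is 50.6% of the hippocampal and 62.4% of the cortical list. Of those called lower 1561 were called lower in cortex, 59.4% and 55.6% of the lists. Features called higher in hippocampus had a median log2 fold change of 1.42 in cortex, and those called lower -1.43, against 0.05 over all features tested in cortex. A positive cortical estimate was found for 86.8% of the features called higher, against 52.4% of all features tested, and a negative estimate for 89.2% of those called lower, against 47.1%. Across the 24555 features the log2 fold changes of the regions had a Pearson correlation of 0.59 (Spearman 0.61), and 0.77 (0.70) across the 14316 features that averaged 1 CPM or more over the 16 libraries. Features are not independent replicates, and all libraries share the scaling.

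The difference between the regions was tested as such, against no difference, and a call again needed an estimate of at least 2-fold. By this rule 2659 features (10.8% of those tested) were called. The SST minus CamK difference was more positive in hippocampus for 1571 and more negative for 1088. With the 2-fold change itself tested by edgeR's glmTreat, 893 features passed. Hippocampal groups carry a W in their titles and the cortical SST and CamK groups do not, so an effect of region and one of the series of titles cannot be told apart. Of the 2659 features, 921 were called in hippocampus alone (561 of the 1852 higher in SST only there and 360 of the 1005 lower). Another 779 were called in cortex alone (344 of the 1140 higher in SST only there and 435 of the 1153 lower). The rest were 528 of the 3559 called in both in the same direction, 272 of the 15687 called in neither, and all 159 called in opposite directions. Opposite calls meet the 2-fold rule by definition. In 72% of the features with a more positive and 64.4% of those with a more negative difference, the regions differed more in CamK than in SST, against 57% of all features tested. CamK cortex was the highest of the 4 groups for 51.6% of the features with a more positive difference, and SST hippocampus for 37.6%. Over all features tested these shares were 24.9% and 28.9%. For a more negative difference, CamK hippocampus was highest for 51.6% and SST cortex for 38.2%, against 24% and 22.2% of all features tested. The sign of a called difference itself favours these groups, so the shares are a description.

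**Figure D4:**
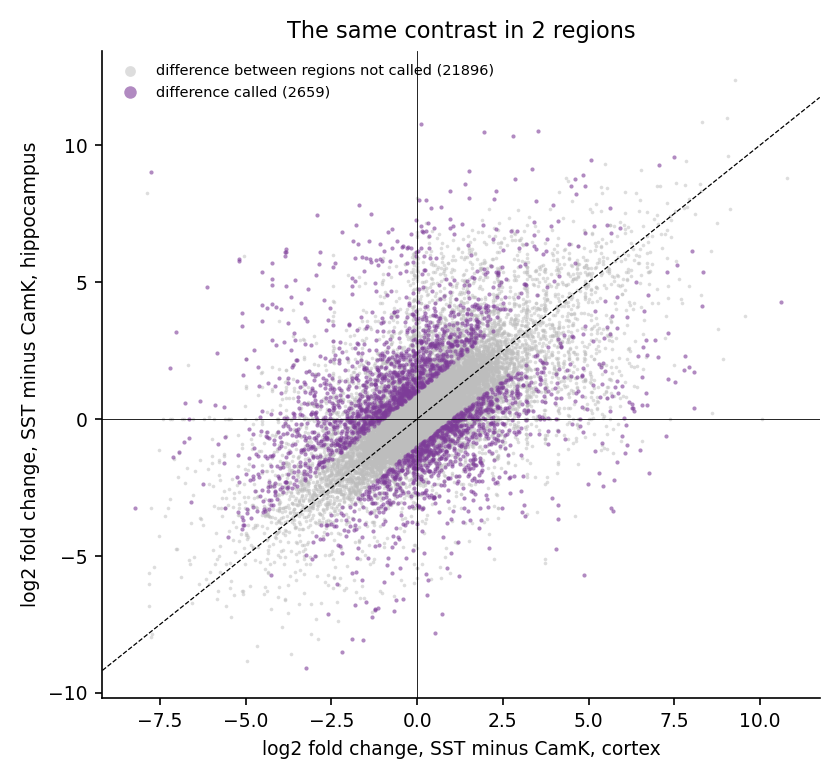
Log2 fold change of SST minus CamK in cortex (horizontal) and hippocampus (vertical) for 24555 features; the dashed line marks equal values. Purple points (2659) had a called difference between the regions, and 159 features were called in opposite directions in the regions.

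Among the opposite calls, 96 features were higher in SST in hippocampus and lower in cortex, and 63 the reverse. The highest group was CamK cortex in 74 of the 96 and SST hippocampus in 22. It was CamK hippocampus in 47 of the 63 and SST cortex in 16. Calls in opposite directions leave only these groups to be highest. The features named for the difference between regions are the 2 largest each way among called features of at least 20 CPM in a group. GSMG0002592, of 1541 bases, was at 34.2, 23.0, 27.1 and 42.3 CPM in SST hippocampus and at 3.66, 20.1, 7.19 and 17.6 CPM in CamK hippocampus. The SST libraries were higher without overlap, although the CamK libraries varied by more than 5-fold, and the log2 fold change was 1.38 (SE 0.36, edgeR adjusted p = 0.00211). In cortex the order turned, with 7.57 ± 1.59 CPM in SST and 85.5 ± 15.3 CPM in CamK (-3.50, SE 0.39, adjusted p = 2.47e-08), and the difference between regions was 4.88 (SE 0.52, adjusted p = 1.04e-07). GSMG0000042, of 2695 bases, was at 2.05, 1.04, 4.30 and 2.18 CPM in SST hippocampus and at 2.42, 2.50, 1.37 and 1.59 CPM in CamK hippocampus, where the groups overlapped (0.28, SE 0.31, adjusted p = 0.466). It stood out only through CamK cortex, at 35.1 ± 6.5 CPM against at most 3.95 CPM on average in every other group, and the difference between regions was 4.82 (SE 0.45, adjusted p = 2e-09).

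GSMG0022630, of 1043 bases, was at 58.9, 63.9, 86.0 and 76.3 CPM in CamK hippocampus and at 9.83, 13.9, 9.27 and 10.3 CPM in SST hippocampus. It was lower in SST in hippocampus (-2.72, SE 0.16, edgeR adjusted p = 1.32e-15) and higher in SST in cortex, at 23.4 ± 3.36 against 3.6 ± 0.90 CPM (2.70, SE 0.16, adjusted p = 2.48e-15). The regions thus differed by -5.42 (SE 0.23, adjusted p = 1e-17), and Grik hippocampus, at 7.25 ± 0.98 CPM, was near SST. GSMG0040475, of 2356 bases, was at 34.6, 34.9, 29.0 and 26.6 CPM in CamK hippocampus and at 8.07, 5.45, 7.08 and 7.25 CPM in SST hippocampus (-2.17, SE 0.18, adjusted p = 3.69e-12). Grik hippocampus had the level of CamK hippocampus, 31 ± 1.58 CPM, while in cortex SST was higher (9.98 ± 1.43 CPM) than CamK (1.57 ± 0.43 CPM), so that the regions differed by -4.83 (SE 0.26, adjusted p = 3.22e-15).

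**Figure D5:**
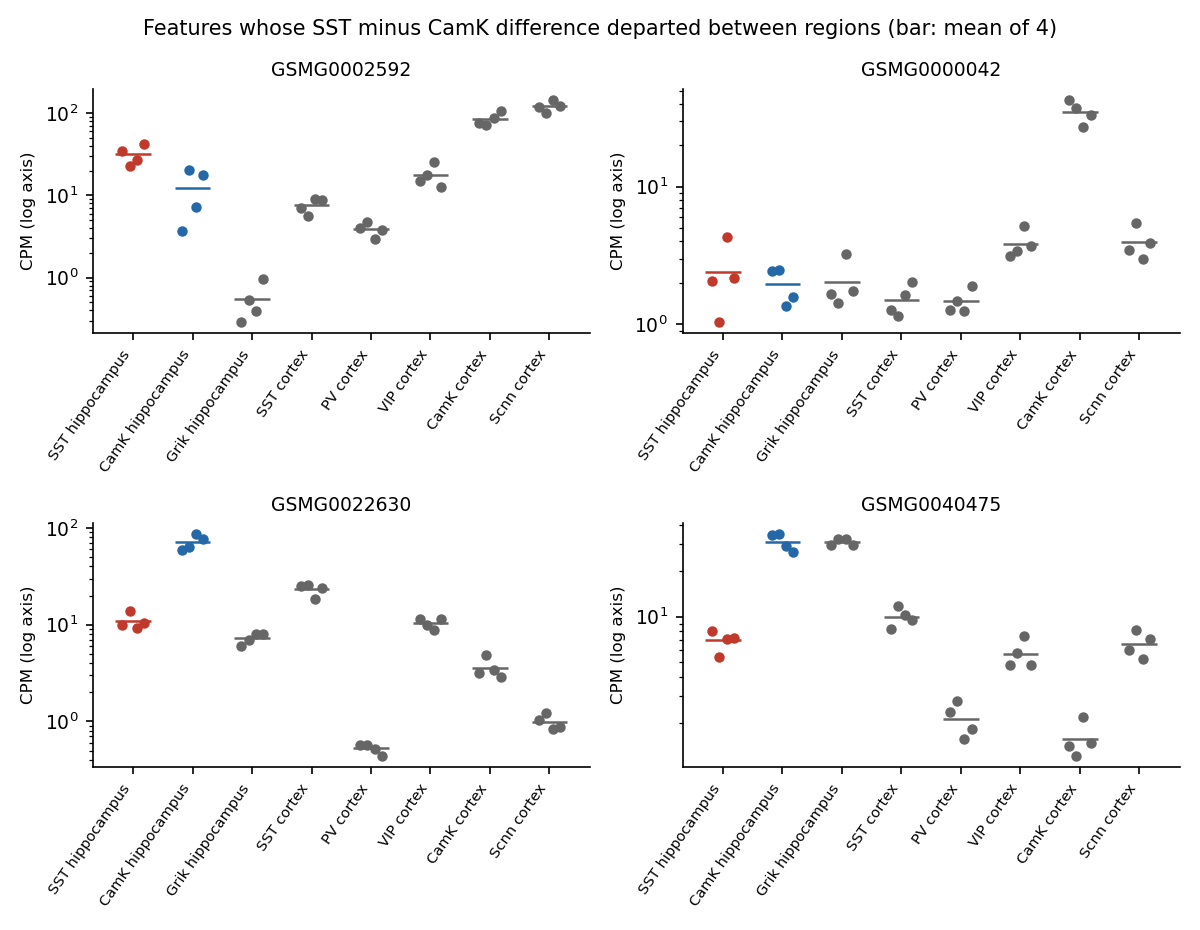
CPM on a log axis in each of the 32 libraries (points) with the mean of each group of 4 (bar), for the 4 features named for the difference between regions. SST hippocampus is red and CamK hippocampus blue; GSMG0000042 is high in CamK cortex alone (35.1 CPM), and GSMG0040475 is at about the same level in Grik (31 CPM) and CamK (31.3 CPM) hippocampus.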

How the data were processed

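The authors deposited 1 table of expected counts (estimated reads for each of 56459 features, mostly not whole numbers). Per the submitters' processing notes the build was GRCm38, and featureCounts, SAMtools, Picard and FastQC were among the tools. Aligner, annotation, counting mode and use of strand were not given in the sources used here, so overlapping features and near-identical copies are uncertain. Of values from 1 to 10 that were whole within 1e-06, 94.1% were even, so both mates of a pair may be counted. A deposited feature length, a value other than counts that the authors gave, was taken as bases. Another 12 per-sample columns match no sample of the labels and were not used. 0 identifiers occurred in the reference tables, so marker lists could not be looked up.

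After rounding, edgeR 4.0.16 (R 4.3.3) was used. filterByExpr kept 24555 features, TMM scaled the libraries, and 32 libraries entered a robust quasi-likelihood fit with a coefficient per group (8 groups) (24 residual degrees of freedom). Calls needed a Benjamini-Hochberg adjusted p under 0.05 and 2-fold. An SE is the absolute log2 fold change over the square root of F. It is derived from the test, so the SEs of the regions need not combine to that of their difference. CPM are TMM-normalised means ± SD. The code was tested on simulated data. Named features follow the rules stated beside them. The comparison, lists and rules were chosen with earlier results of these data known. Deviations of same-numbered SST and CamK hippocampus libraries had correlations of 0.12, 0.16 and 0.2 for the numbers 2, 3 and 5 (features of at least 5 CPM). Differently numbered ones ranged from -0.22 (SST 3 with CamK 5) to 0.17 (SST 3 with CamK 2). The next highest was 0.12 (SST 1 with CamK 4), and most were negative. In cortex the numbers 1 to 4 gave 0.016, 0.12, -0.049 and -0.22, and SST 1 with CamK 4 gave 0.26. The labels state no pairing, and the main fit was unpaired. Whether equal numbers mark pairs was not tested. With the replicate number as a block 4898 features were called in hippocampus, against 5467 in the same libraries without it. The counts restricted to features averaging 1 CPM or more were added after the calls were seen. Other normalization, filters, DESeq2 1.42.0, limma-voom 3.58.1, thinning, a replicate block and leaving out libraries were tried.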

Additional observations from a re-analysis of the deposited data

Results flagged for a closer look

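A test for a library far from the other 3 of its group was made 38 times, over named features and library measures, and flagged 4. The tests share libraries, and GSMG0043055 was named because it was known to vary within groups. The number flagged is therefore not set against chance. SST hippocampus replicate 1 had 186505391 counts, against at most 114153919 in the other 3. SST hippocampus replicate 3 had the most features at 1 CPM or more, 14336, and the smallest share of counts in the 100 most abundant features, 21.5%. Without it 6260 features were called, 3660 of them higher in SST. GSMG0043055 was at 0 CPM in CamK hippocampus replicate 5 and at 34.5 to 39.0 CPM in the other 3, and all 4 SST hippocampus libraries were above 10 CPM (31.8 to 75.0). GSMG0043055 also varied within most other groups. Of 4 libraries each, 1 of CamK cortex, 2 of Grik hippocampus and 2 of Scnn cortex reached 10 CPM. In PV and SST cortex 3 did, and in VIP cortex all 4. With its state (10 CPM or more, or less) as a term in the fit 6464 features were called.

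The difference between the hippocampal and cortical SST minus CamK effects was called in 2659 features, 159 of them called in opposite directions in the regions. Among the named features it was 2.10 for GSMG0031866, -2.04 for GSMG0027043, -4.74 for GSMG0040120, 4.88 for GSMG0002592, 4.82 for GSMG0000042, -5.42 for GSMG0022630 and -4.83 for GSMG0040475. For GSMG0010975 it was 0.56 (SE 0.43, edgeR adjusted p = 0.395).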

How the results depend on the processing

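Each named feature kept its direction and its call under every alternative run, 20 for the hippocampal contrast and 27 for the difference between regions. Without the fold threshold 12560 features passed in hippocampus, 11810 in cortex and 5694 for the difference between regions. With the 2-fold change tested by edgeR's glmTreat these were 4041, 3478 and 893. The other settings stayed within 1.5 times the counts reported: RLE size factors, both filters, counts divided by 2, limma-voom, DESeq2, the state of GSMG0043055, thinning and a fit to the compared libraries alone. Leaving out a library gave 6163 to 6581 features in hippocampus (58.5% to 62.3% higher in SST), 5659 to 5891 in cortex and 2464 to 2658 for the difference. With a replicate block the counts were 4898 (54.1% higher in SST), with SST replicate 1 and CamK replicate 4 lacking a partner, against 5467 (56.3%) without the block in the same 8 libraries, 5395 in cortex and 2266 for the difference, and the block changed no call of a named feature. The strict filter left 4683 called features, 57% higher in SST. Depth limits the size of a difference where a group has 0 counts, as in 471 features called higher and 128 called lower. With counts divided by 2, 6319 features were called, and 6565 with SST replicate 1 thinned.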

Other observations

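Called features were somewhat longer than the rest. The median deposited length was 1927.5 bases for features called higher in SST, 1657 for those called lower and 1579 for those not called. For features averaging 1 CPM or more the medians were 1759, 1587 and 1405 bases. In that set 7.27% of the features under 500 bases and 30% of those of 4000 bases or more were called, and the share of calls that were higher in SST was 57.6% in the longest class and 46.7% from 500 to 1000 bases. 

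GSMG0018104 varied within SST hippocampus, at 228.0, 3.42, 328.6 and 222.8 CPM in replicates 1, 2, 3 and 5, and at 61.1, 44.3, 17.4 and 28.0 CPM in CamK replicates 2 to 5. It was not called (log2 fold change 2.38, SE 1.26, edgeR adjusted p = 0.12). Over features of at least 5 CPM, SST replicate 2, its low library, had a median absolute deviation of 0.0898 on the log2 scale, the smallest of the 4 SST libraries.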
